A study of Mus musculus with 8 samples.

Results

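The translocon and ER-Golgi transport genes are 48 mouse genes whose products carry newly made secretory proteins into the endoplasmic reticulum (ER) and shuttle them between the ER and the Golgi. They were taken as a list of symbols, with no threshold on their measured values. All 48 were found among the 55487 gene identifiers of the deposited tables, and all 48 passed the filter on low counts. By role they fall into 9 translocon genes, 5 signal peptidase genes, 12 COPII genes, 8 COPI genes, 10 p24 family genes, and 4 cargo and retrieval receptor genes.

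A protein bound for secretion is threaded through the Sec61 pore of the translocon, and the signal peptidase complex then cuts off its leader. COPII-coated vesicles carry it forward to the Golgi, while COPI-coated vesicles return escaped ER residents and machinery, with p24 proteins and KDEL receptors selecting what travels. Islet endocrine cells make hormones such as insulin through this route, and the acinar cells that surround islets make digestive enzymes through the same route.

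The libraries were made from islets picked by hand, and C57BL/6J was the inbred strain of every group. The first group was Ide-/- (3 libraries), without the gene for insulin-degrading enzyme, a protease that cleaves insulin and other short peptides, and the second was Ide+/+ (5 libraries). The mice of both genotypes ate a diet with 60 kcal% fat for 2 weeks from 10 weeks of age and are labelled female. The labels name biological replicates but give neither the number of animals behind a library nor the cells in which Ide was deleted, so the p-values measure the spread between these libraries.

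The Ide-/- libraries held 17445935, 13237930 and 7143415 counts, against 19277269 to 33371642 counts in the Ide+/+ libraries. Ide had 4 to 7 counts in the Ide-/- libraries, against 256 to 765 counts in the Ide+/+ libraries, a log2 difference of −6.74 (SE 0.39) at an adjusted p of 6.2e-06 in edgeR. The sex-linked transcripts went against the female label in 7 of 8 libraries: Ddx3y had 778 to 2139 counts in the Ide-/- libraries and 503 to 1581 counts in Ide+/+ replicates 2 to 5, and Ide+/+ replicate 1 alone had 0 counts of Ddx3y and 692 counts of Xist. Levels are given as CPM, counts relative to the library size after edgeR's TMM scaling, so sums over genes can differ from shares of the library. The 10 beta cell markers took 13.5% to 21.8% of the counts in the Ide-/- libraries and 1.70% to 7.76% in the Ide+/+ libraries, without overlap, and summed to 83569 to 106140 CPM in the Ide-/- libraries and 35230 to 138130 CPM in the Ide+/+ libraries, with overlap. The groups differed widely in markers of acinar cells. All 30 acinar markers were called lower in Ide-/- islets (median log2 fold change −6.35), and together they summed to 3361 to 9742 CPM in the Ide-/- libraries against 198680 to 1009200 CPM in the Ide+/+ libraries. Their share of the counts was 0.692% to 1.49% in the Ide-/- libraries, against 23.4% to 40.9% in the Ide+/+ libraries. The list holds only Amy2b of the Amy2 amylase genes. With all Amy2 genes added, the share was 1.08% to 2.63% in the Ide-/- libraries. In Ide+/+ replicates 1 to 5 it was 76.4%, 41.0%, 41.4%, 64.6% and 70.0%. One of the 30 markers, Cela3a, was at 0 counts in every Ide-/- library. In addition, 7 of 8 duct markers and 7 of 8 macrophage markers were called lower, where 10.6% of all tested genes were. As shares of the counts the macrophage markers overlapped, at 0.0142% to 0.0184% in Ide-/- and 0.0120% to 0.0426% in Ide+/+ libraries. Of the other markers, 1 of 6 alpha cell and 1 of 7 fibroblast and stellate genes were called lower. Of the delta and PP cell markers 1 of 3 was called higher, and no endothelial or beta cell marker was called.

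Against that background, 4 of the 48 transport genes changed between the genotypes. Tmed6 and Tmed11 (p24 family) and Copz1 (COPI) were lower in Ide-/- islets, and Sec16b (COPII) was higher. A gene was called when the adjusted p of edgeR's quasi-likelihood test, corrected over all 16266 tested genes, was under 0.05. Of all tested genes, 10.6% were called lower and 10.4% were called higher, so neither 3 of 48 lower nor 1 of 48 higher exceeds the background share. Of the other 44 members none passed the test, and their log2 fold changes (Ide-/- over Ide+/+) lay between −1.05 and 0.49. The median over the 48 genes was −0.27, against −0.01 over all tested genes. Negative values were found for 34 of the 48 members and for 8202 of all 16266 tested genes. The counts by role that follow are to be read against the same shares, and each rests on few genes.

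**Figure D1:**
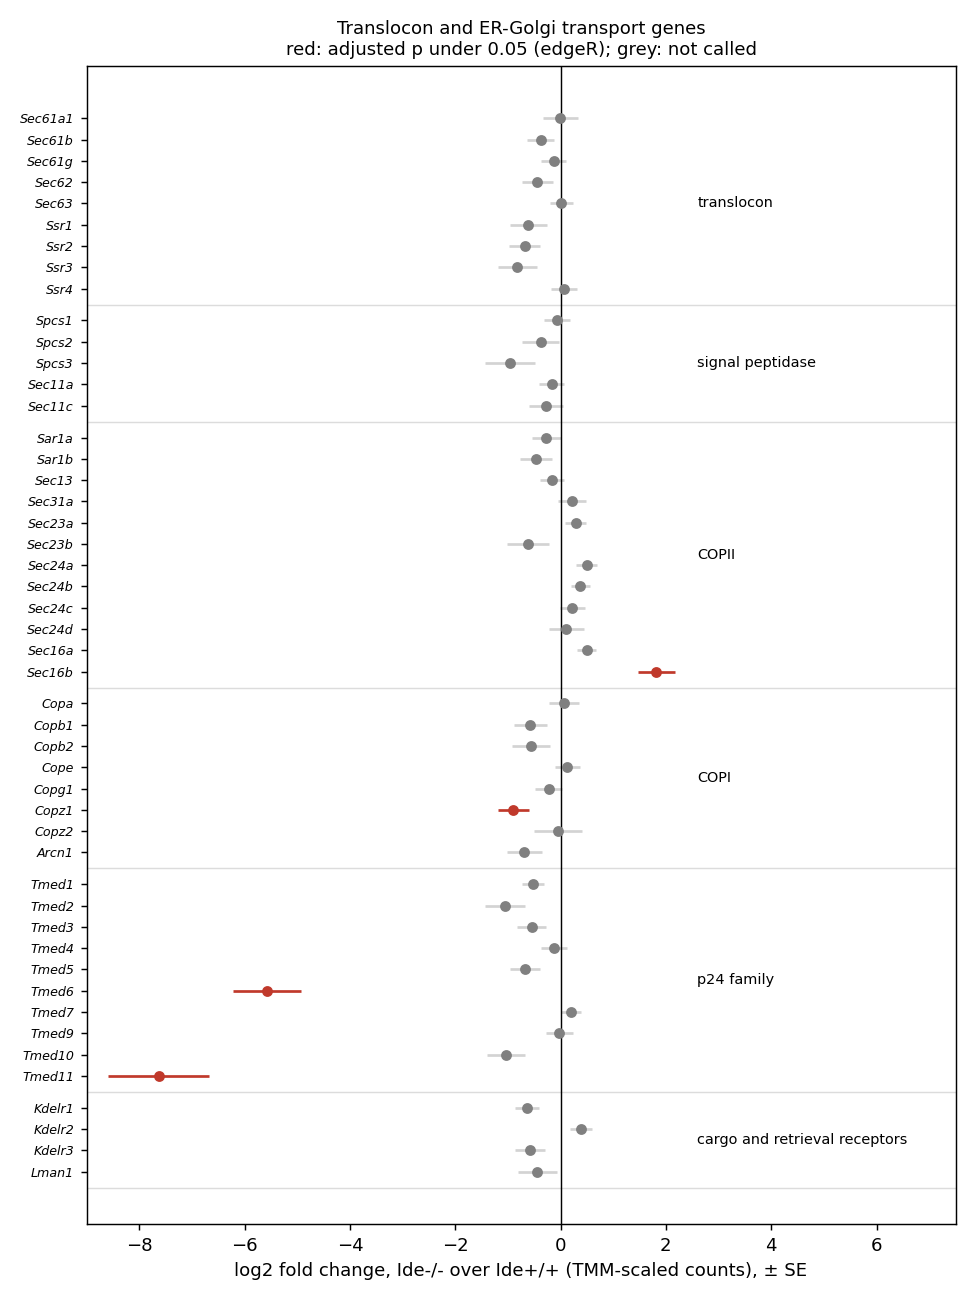
Log2 fold change of each of the 48 genes, Ide-/- over Ide+/+ (n = 3 and 5 libraries), on the horizontal axis, with bars of 1 standard error and the genes grouped by role from top to bottom. Red points passed an adjusted p under 0.05: Tmed11 at −7.63, Tmed6 at −5.57, Copz1 at −0.89 and Sec16b at 1.82, and the grey points lie between −1.05 and 0.49.

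Separate from the test, the libraries of the genotypes did not overlap for 12 members. All Ide-/- libraries were below all Ide+/+ libraries for 9 genes (Copz1, Arcn1, Tmed1, Tmed2, Tmed5, Tmed6, Tmed10, Tmed11 and Kdelr1), as for 15.6% of all tested genes. All Ide-/- libraries were above all Ide+/+ libraries for 3 genes (Sec24b, Sec16a and Sec16b), as for 17.4% of all tested genes. The count of 9 in 48 is near its background share, and 3 in 48 is below its own.

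One Ide+/+ library stood apart in these genes on the TMM scale. By CPM, Ide+/+ replicate 1 had the highest level of the 5 Ide+/+ libraries for 41 of the 48 members, and the highest of all 8 libraries for 39. Its TMM factor was the smallest, 0.405, against 1.18 and 1.15 in Ide+/+ replicates 2 and 3. As a share of the counts the members did not stand out there. They took 0.376% in Ide+/+ replicate 1, 0.477% and 0.476% in replicates 2 and 3, and 0.356% and 0.243% in replicates 4 and 5. In CPM, the median excess of Ide+/+ replicate 1 over the mean of the other Ide+/+ libraries was 0.74 on the log2 scale for the members, 1.43 for the acinar markers and −0.05 for all tested genes. Without this library, the members' median log2 fold change was −0.08. The calls were then 5 lower (Tmed6, Tmed11, Copz1, Tmed10 and Kdelr1) and 2 higher (Sec16b and Sec23a). Of all 16028 genes tested in that fit, 2139 were called lower and 2141 higher.

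**Figure D2:**
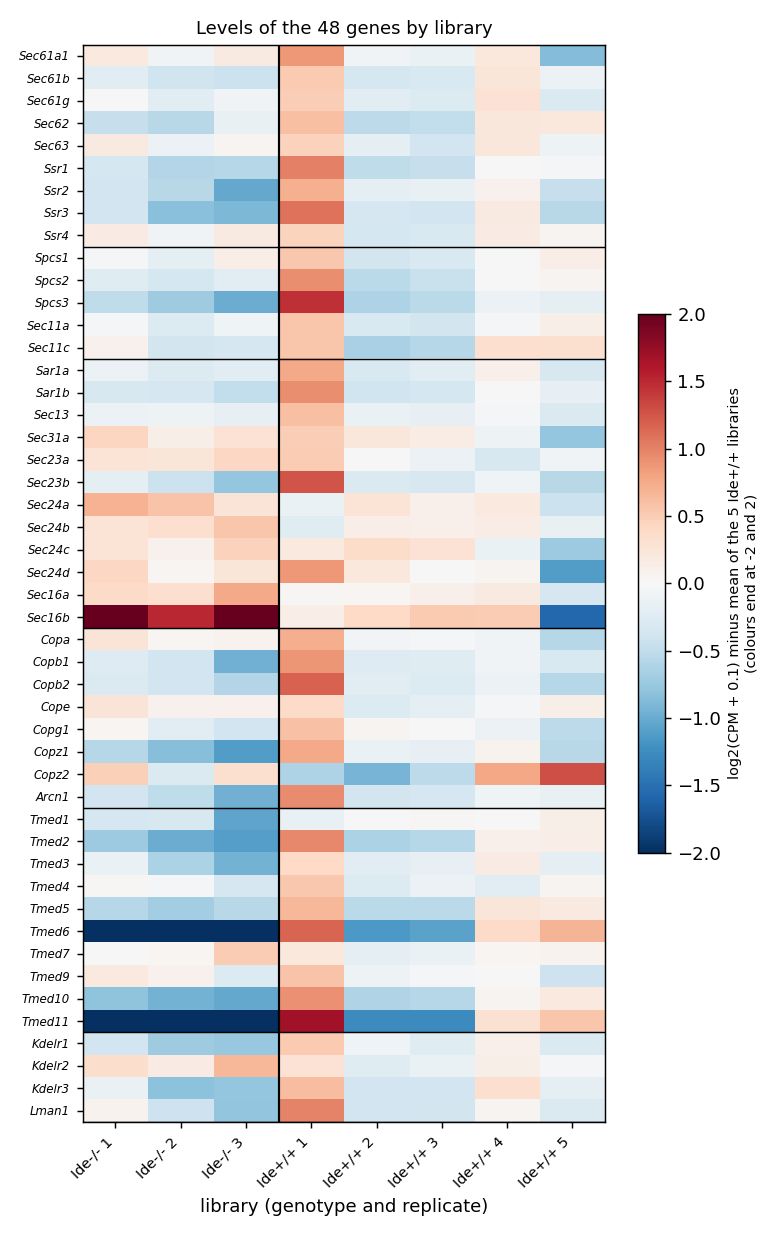
Level of each of the 48 genes (rows) in each library (columns), as log2(CPM + 0.1) minus the mean of the 5 Ide+/+ libraries, with red above that mean and blue below it and the colours ending at −2 and 2. Ide+/+ replicate 1 is the reddest column, highest of the 5 Ide+/+ libraries in 41 rows, and the deepest blue cells are Tmed6 and Tmed11 in the 3 Ide-/- libraries.

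The scale of measurement bears on the direction of the smaller differences. The CPM values use edgeR's TMM scaling, which balances the bulk of genes between libraries. TPM values, as the authors deposited them, are corrected for transcript length and are a share of each library, so the acinar transcripts take part of the total. On the log2(TPM + 1) scale with limma, 24 members were called higher and 2 lower (Tmed6 and Tmed11), against 1 higher and 3 lower with TMM scaling. Of all 16266 tested genes, 5925 were called higher and 415 lower on the log2(TPM + 1) scale, against 1699 and 1727 with TMM scaling. Over all genes the log2(TPM + 1) scale called 93.5% of changed genes higher, against 49.6% with TMM scaling, and shifted the median of all tested genes to 0.50. The members' median was 0.76 on that scale, so relative to all tested genes it lay 0.26 higher, and with TMM scaling 0.26 lower (a difference of −0.26). With a pseudocount of 0.1 in place of 1, the members' median was 0.80 against 0.83 over all tested genes, a difference of −0.04, so the sign of the difference depends on the pseudocount. The sign of 30 of the 48 members differed between the scales, and Sec16b, Tmed6 and Tmed11 kept theirs. How much of each difference follows the change in acinar transcripts was not tested. In bulk samples, fewer cells of a type and less RNA per cell cannot be told apart.

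The p24 genes held the largest differences. These transmembrane proteins cycle between the ER and the Golgi and take part in cargo selection and vesicle formation. Of the 10 members 2 were called lower and none higher, where 10.6% and 10.4% of all tested genes were. Negative values were found for 9, and the median log2 fold change was −0.61. Tmed6 and Tmed11 were nearly lost from the Ide-/- libraries, while Tmed10 and Tmed2, the core partners of the family, differed by much less.

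Tmed6 (ENSMUSG00000031919; GRCm38 chromosome 8, 107061476 to 107065644, minus strand) had 3.84, 6.02 and 5.87 CPM in Ide-/- replicates 1 to 3, against 459, 91.9, 97.8, 266 and 326 CPM in Ide+/+ replicates 1 to 5. Every Ide-/- library was far below every Ide+/+ library, and within Ide+/+ replicates 2 and 3 were the lowest. The Ide-/- values rested on 138, 148 and 64 counts. The means were 5.24 ± 1.22 CPM in Ide-/- islets and 248 ± 156 CPM in Ide+/+ islets (SD, n = 3 and 5), giving −5.57 as the log2 fold change (SE 0.64, adjusted p = 0.000503, edgeR).

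Tmed11 (ENSMUSG00000004821; chromosome 5, 108777235 to 108795363, minus strand) had 0.139, 0.895 and 0.367 CPM in the Ide-/- libraries, against 218, 28.05, 28.05, 84.3 and 99.9 CPM in the Ide+/+ libraries. Within Ide+/+ replicate 1 was again highest and replicates 2 and 3 were lowest, and the genotypes did not overlap. The Ide-/- values rested on only 5, 22 and 4 counts. The fitted log2 fold change of −7.63 (SE 0.96) had an adjusted p of 0.000636 in edgeR. Without Ide+/+ replicate 1 it was −7.04 for Tmed11 and −5.24 for Tmed6, and both calls held.

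Tmed6 and Tmed11 were also set against the acinar markers of their own library. Tmed6 had 114, 77.5 and 60.2 counts per 100000 acinar marker counts in Ide-/- replicates 1 to 3, against 42.8 to 47.4 in the Ide+/+ libraries. Its ratio to the markers was thus nearly constant over the 5 Ide+/+ libraries and higher in the 3 Ide-/- libraries, where the markers are scarce. Tmed11 had 4.14, 11.5 and 3.76 counts per 100000 acinar marker counts in the Ide-/- libraries, against 21.6, 14.1, 13.6, 14.4 and 13.1 in the Ide+/+ libraries, so on this scale it was lower in each Ide-/- library. These ratios were chosen with the values known and carry no test.

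By length-corrected level, Tmed6 ranked 41st of the 48 members in Ide-/- islets (8.96 ± 1.79 TPM) and 3rd in Ide+/+ islets (196 ± 58.2 TPM). Tmed11 ranked 48th in Ide-/- islets (0.947 ± 0.85 TPM) and 14th in Ide+/+ islets (80.8 ± 40.9 TPM). Together these genes made up 0.867%, 1.76% and 1.86% of all p24 TPM in the Ide-/- libraries, against 42.5%, 22.3%, 22.1%, 37.7% and 43.0% in the Ide+/+ libraries. The shares within a library do not depend on its scaling, and the lowest Ide+/+ share lay above the highest Ide-/- share.

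**Figure D3:**
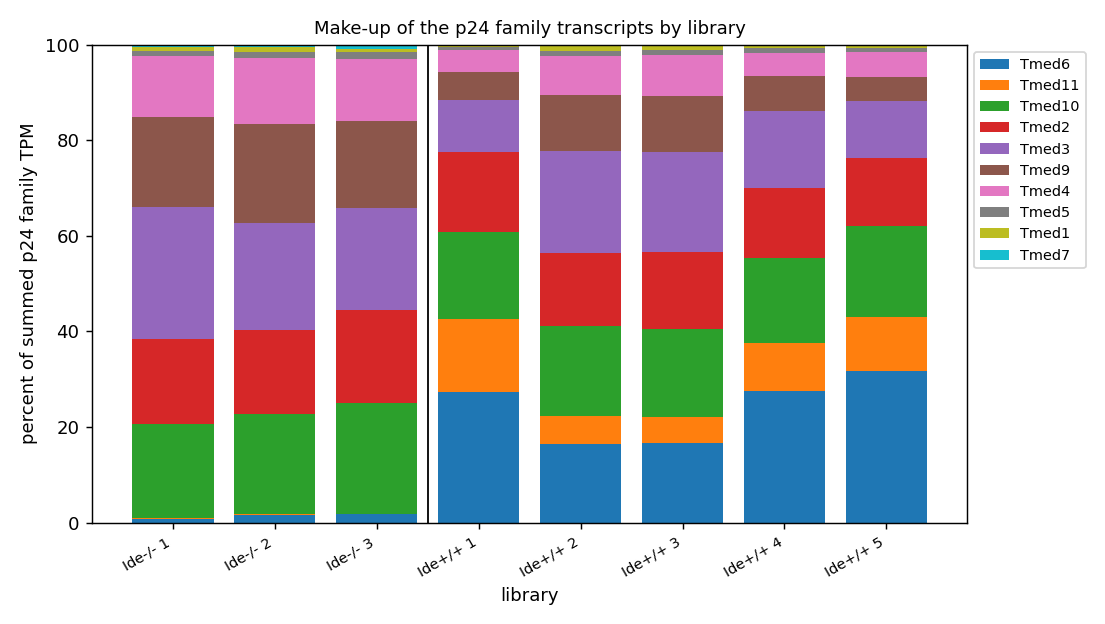
Share of the summed TPM of the 10 p24 genes (vertical axis, percent) taken by each gene in each library, with the 3 Ide-/- libraries left of the 5 Ide+/+ libraries. Tmed6 and Tmed11, at the base of each bar, take 0.867% to 1.86% in the Ide-/- libraries and 22.1% to 43.0% in the Ide+/+ libraries.

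Among the other p24 genes, Tmed10 had the highest mean TPM. It had 188, 171 and 162 CPM in the Ide-/- libraries, against 623, 218, 223, 341 and 377 CPM in the Ide+/+ libraries, so all Ide-/- libraries were lower. The log2 fold change of −1.03 (SE 0.37, adjusted p = 0.0630, edgeR) missed the threshold. Tmed2, its partner, had 196, 163 and 152 CPM in the Ide-/- libraries, against 635, 210.0, 219.8, 348 and 356 CPM in the Ide+/+ libraries (log2 fold change −1.05, SE 0.38, adjusted p = 0.0658). Both genes followed the library order of Tmed6 within Ide+/+, with replicate 1 highest. Without Ide+/+ replicate 1 the fold change of Tmed10 was −0.74 (adjusted p = 0.0477) and that of Tmed2 was −0.74 (adjusted p = 0.0512).

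Tmed1 and Tmed5 also did not overlap between the genotypes without passing the test. Tmed1 had 3.94 to 6.63 CPM in the Ide-/- libraries and 7.52 to 9.01 CPM in the Ide+/+ libraries, with its highest Ide+/+ value in replicate 5 (log2 fold change −0.53, adjusted p = 0.0920, edgeR). Tmed5 had 19.8 to 21.8 CPM in the Ide-/- libraries and 21.9 to 50.9 CPM in the Ide+/+ libraries, so the groups were nearly in contact (−0.68, adjusted p = 0.105). Tmed3, Tmed4 and Tmed9 had log2 fold changes of −0.55, −0.13 and −0.02, and Tmed7 had the only positive value of the family, 0.20.

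Of the COPII genes, which build the forward coat, 1 was called higher and none lower. The median log2 fold change was 0.22 over the 12 genes, and 8 of them had positive values. The called gene was Sec16b, the shorter paralog of Sec16a. Sec16 proteins are scaffolds of ER exit sites, the zones where COPII vesicles form.

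Sec16b (ENSMUSG00000026589; chromosome 1, 157506728 to 157568425, plus strand) had 33.9, 22.5 and 38.9 CPM in Ide-/- replicates 1 to 3, against 8.62, 10.4, 11.3, 11.2 and 2.58 CPM in Ide+/+ replicates 1 to 5. All Ide-/- libraries exceeded all Ide+/+ libraries, and Ide+/+ replicate 5 was the lowest with 24 counts. The means were 31.7 ± 8.39 CPM in Ide-/- islets and 8.83 ± 3.66 CPM in Ide+/+ islets, giving 1.82 as the log2 fold change (SE 0.35, adjusted p = 0.00497, edgeR). Set against 21 secretory granule genes, as markers of endocrine cells, Sec16b had 560.3, 435 and 858 counts per 100000 granule counts in the Ide-/- libraries, against 107, 178, 195, 209.9 and 64.8 in the Ide+/+ libraries. The granule genes summed to 4532 to 6048 CPM in the Ide-/- libraries and 3977 to 8028 CPM in the Ide+/+ libraries, and they took 0.692% to 1.25% of the counts in the Ide-/- libraries and 0.192% to 0.690% in the Ide+/+ libraries. The granule sums overlapped on the TMM scale, and as shares of the counts every Ide-/- library was higher. Of those 21 genes, 5 were called higher and 1 lower, and their part in the Sec16b difference was not tested.

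Sec16b was still the least abundant member by TPM in Ide+/+ islets (1.68 ± 0.997 TPM), and in Ide-/- islets it ranked 40th (9.58 ± 2.08 TPM). Its paralog Sec16a, the longer scaffold, had 31.1, 30.1 and 40.2 CPM in the Ide-/- libraries, against 24.05, 24.4, 25.4, 26.9 and 18.8 CPM in the Ide+/+ libraries. All Ide-/- values of Sec16a were the higher ones, but the log2 fold change of 0.49 (SE 0.19) gave an adjusted p of 0.0792 (edgeR).

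Sec24 proteins bind the cargo in the inner COPII shell. Sec24b had 9.24 to 11.2 CPM in the Ide-/- libraries and 6.41 to 8.48 CPM in the Ide+/+ libraries, without overlap (log2 fold change 0.37, adjusted p = 0.160, edgeR). Sec24a had 21.8 to 29.6 CPM in the Ide-/- libraries and 13.5 to 22.1 CPM in the Ide+/+ libraries (0.49, adjusted p = 0.0978). The values for Sec24c and Sec24d were 0.23 and 0.11, so all 4 cargo adaptors had positive log2 fold changes and none was called.

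Of the remaining COPII coat genes, Sec13, an outer shell subunit, had the highest mean TPM of the group. It had 50.6, 50.8 and 49.0 CPM in the Ide-/- libraries, against 83.0, 50.1, 48.9, 53.9 and 44.5 CPM in the Ide+/+ libraries. Only Ide+/+ replicate 1 stood out, and Sec13 came to −0.16 on the log2 scale (SE 0.23, adjusted p = 0.651, edgeR). Its partner Sec31a was at 0.22. The GTPase genes Sar1a and Sar1b, whose products start coat assembly, were at −0.27 and −0.46. Sec23a and Sec23b, whose products activate the Sar1 GTPase, were at 0.28 and −0.62, and Sec23b in Ide+/+ replicate 1 reached 198 CPM against 48.5 to 78.2 CPM in the other 7 libraries.

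Of the COPI genes, which build the return coat, 1 was called lower and none higher. The median log2 fold change was −0.39 over the 8 genes. Copz1, the widely expressed zeta subunit (ENSMUSG00000060992; chromosome 15, 103272714 to 103299868, plus strand), had 48.1, 39.7 and 33.1 CPM in Ide-/- replicates 1 to 3, against 122, 65.1, 64.2, 75.5 and 48.8 CPM in Ide+/+ replicates 1 to 5. The groups were in near contact, with Ide-/- replicate 1 just below Ide+/+ replicate 5. The fitted log2 fold change of −0.89 (SE 0.29) had an adjusted p of 0.0487 in edgeR, just inside the threshold.

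The Copz1 call held without Ide+/+ replicate 1 (adjusted p = 0.0286) and without Ide+/+ replicate 5 (adjusted p = 0.0325), and it ended in the other 6 fits that left out a library. In those the adjusted p was 0.0835, 0.147 and 0.18 without Ide-/- replicates 1, 2 and 3, and 0.0508, 0.0534 and 0.0907 without Ide+/+ replicates 2, 3 and 4, with log2 fold changes of −1.04 to −0.77. With libraries scaled to the granule genes it was −0.74 (adjusted p = 0.0718). On the log2(TPM + 1) scale it was 0.05. Against the granule genes, Copz1 had 795, 769 and 730.1 counts per 100000 granule counts in the Ide-/- libraries, against 1515, 1110, 1102, 1416 and 1228 in the Ide+/+ libraries, so each Ide-/- ratio was the lower. Against the acinar markers the direction was opposite, with 340 to 1430 counts per 100000 in the Ide-/- libraries and 6.40 to 32.75 in the Ide+/+ libraries. The direction thus depends on the reference genes, and neither ratio was tested.

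Arcn1, the delta subunit, had 77.8 to 116 CPM in the Ide-/- libraries and 117 to 292 CPM in the Ide+/+ libraries, without overlap but in near contact (log2 fold change −0.69, adjusted p = 0.157, edgeR). Cope, the epsilon subunit and the COPI gene with the highest mean TPM, had 229, 202 and 203 CPM in the Ide-/- libraries, against 249.7, 159, 169, 186 and 207 CPM in the Ide+/+ libraries. The values of the genotypes were mixed, at 0.12 on the log2 scale (SE 0.24, adjusted p = 0.741). Copa, Copb1, Copb2 and Copg1, further subunits of the coat, were at 0.06, −0.58, −0.56 and −0.22. Copz2, the second zeta subunit, was at −0.05 with a spread unlike that of Copz1: 17.4 to 29.5 CPM in the Ide-/- libraries, against 13.8, 11.1, 14.8, 36.5 and 51.8 CPM in the Ide+/+ libraries.

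**Figure D4:**
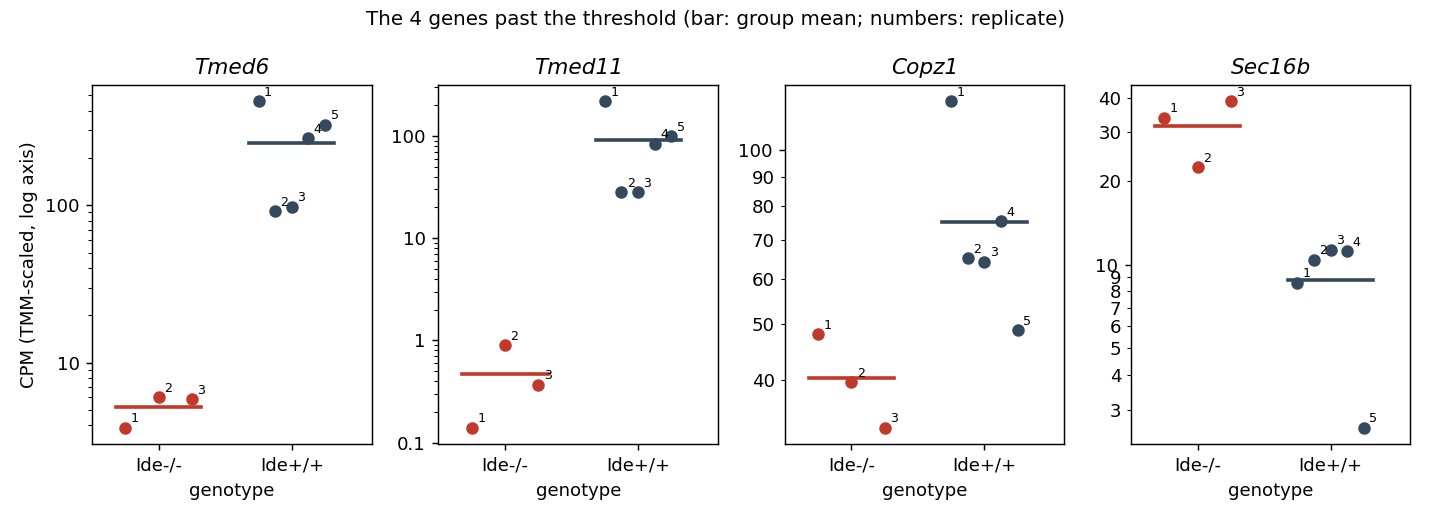
CPM (TMM-scaled, log axis) of Tmed6, Tmed11, Copz1 and Sec16b in each library, with Ide-/- left of Ide+/+, the replicate number beside each point and a bar at the group mean. The genotypes do not overlap in any panel, and the gap is narrowest for Copz1, between 48.1 CPM in Ide-/- replicate 1 and 48.8 CPM in Ide+/+ replicate 5.

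No translocon gene passed the test, and the libraries of the genotypes overlapped for all 9. Ssr4, a subunit of the TRAP complex that assists Sec61, was the translocon gene with the highest mean TPM. It had 215, 182 and 217 CPM in the Ide-/- libraries, against 260.1, 149.9, 155, 214 and 199 CPM in the Ide+/+ libraries. The values of the genotypes interleaved (log2 fold change 0.07, SE 0.26, adjusted p = 0.875, edgeR). The other TRAP genes Ssr1, Ssr2 and Ssr3 were at −0.61, −0.68 and −0.82, and the smallest adjusted p of the group was 0.113, for Ssr2. Sec61a1, which encodes the pore, had 159 to 192 CPM in the Ide-/- libraries and 91.2 to 305 CPM in the Ide+/+ libraries, a log2 fold change of −0.00 (SE 0.34). The small Sec61 subunits Sec61b and Sec61g were at −0.38 and −0.13, and Sec62 and Sec63, which help proteins enter after translation, were at −0.44 and 0.02.

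The 5 signal peptidase genes gave no call, and their log2 fold changes lay between −0.96 (Spcs3) and −0.06 (Spcs1). Sec11c, which encodes a catalytic subunit and had the highest mean TPM of the group, had 223, 164 and 166 CPM in the Ide-/- libraries, against 309, 134, 142, 267 and 262 CPM in the Ide+/+ libraries. Ide+/+ replicates 2 and 3 were below every Ide-/- library and the other 3 were above, which came to −0.27 on the log2 scale (SE 0.32, adjusted p = 0.578, edgeR). The alternative catalytic subunit Sec11a was at −0.17. Spcs3, an accessory subunit, had 122 to 171 CPM in the Ide-/- libraries and 158 to 225 CPM in Ide+/+ replicates 2 to 5, and 669 CPM in Ide+/+ replicate 1.

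The receptors gave no call, and their directions were mixed. Lman1 (ERGIC-53), a lectin that carries glycoproteins out of the ER, had 235, 167 and 129 CPM in the Ide-/- libraries, against 442, 171, 172, 232 and 182 CPM in the Ide+/+ libraries. Ide-/- replicate 1 exceeded 4 of the 5 Ide+/+ libraries, and Lman1 came to −0.44 on the log2 scale (SE 0.37, adjusted p = 0.412, edgeR). The KDEL receptors return escaped ER chaperones from the Golgi. Kdelr1 had 19.2, 15.3 and 14.8 CPM in the Ide-/- libraries, against 36.1, 23.5, 21.1, 27.0 and 20.5 CPM in the Ide+/+ libraries, all of them higher. Its log2 fold change was −0.63 with an adjusted p of 0.0622, the smallest among the members that were not called, and without Ide+/+ replicate 1 it was −0.48 (adjusted p = 0.0448). Kdelr2 had 76.1 to 108 CPM in the Ide-/- libraries and 57.7 to 83.5 CPM in the Ide+/+ libraries (0.39, adjusted p = 0.204), and Kdelr3 was at −0.58.

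To compare paralogs and partners independently of library scaling, the log2 ratio of their CPM was taken within each library for 12 pairs and compared by a two-sided exact permutation test of genotype, which has 56 arrangements. The smallest exact p this design allows is 0.0179, and over 12 pairs fewer than 5 at that value cannot pass an adjusted p of 0.05. None passed after adjustment, and 4 had an unadjusted p under 0.05.

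The ratios of 3 pairs did not overlap between the genotypes, each with an exact p of 0.0179 (two-sided, adjusted p = 0.0714). Sec16b to Sec16a had a mean log2 ratio of −0.11 ± 0.28 in Ide-/- islets and −1.59 ± 0.70 in Ide+/+ islets (SD, n = 3 and 5), a difference of 1.47. Tmed6 to Tmed10 had −5.05 ± 0.46 in Ide-/- islets and −0.69 ± 0.49 in Ide+/+ islets, a difference of −4.37. Kdelr2 to Kdelr1 had log2 ratios of 2.17, 2.31 and 2.86 in the Ide-/- libraries, against 1.21, 1.29, 1.56, 1.45 and 1.68 in the Ide+/+ libraries, a difference of 1.01. The balance between these KDEL receptors was thus shifted toward Kdelr2 in each Ide-/- library, although neither gene was called on its own.

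Tmed3 to Tmed7 had 2.73 ± 0.66 in Ide-/- islets and 3.48 ± 0.17 in Ide+/+ islets, with Ide-/- replicate 1 inside the Ide+/+ range (difference −0.76, exact p = 0.0357, adjusted p = 0.107). Sec23b to Sec23a differed by −0.77 (exact p = 0.0714) and Copz2 to Copz1 by 1.02 (exact p = 0.25), the Copz ratio running over 3 log2 units among the Ide+/+ libraries alone. The other 6 pairs had differences of −0.45 to 0.12, the smallest exact p being 0.125 for Sec61b to Sec61a1.

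**Figure D5:**
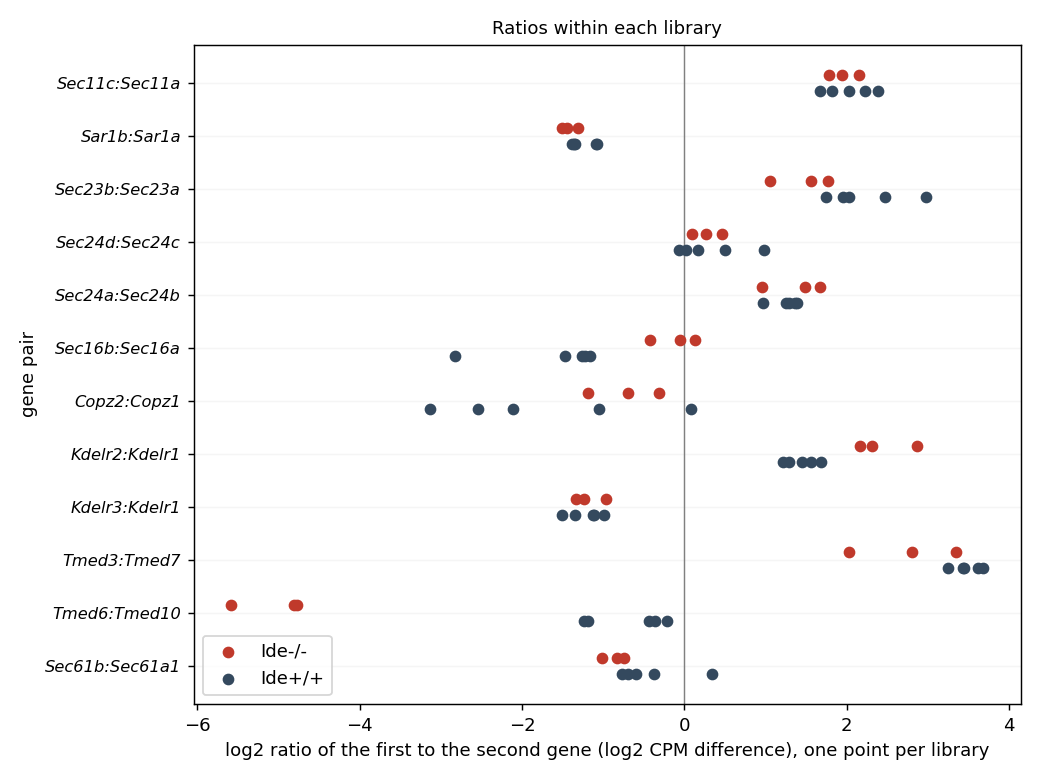
Log2 ratio of the first to the second gene of each pair (horizontal axis), 1 point per library, with the Ide-/- libraries drawn above the Ide+/+ libraries in each row. Sec16b:Sec16a, Kdelr2:Kdelr1 and Tmed6:Tmed10 are the rows whose points do not overlap, and Copz2:Copz1 has the widest Ide+/+ spread.

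Promoter sequence was examined because many secretory pathway genes are known targets of the ER stress factors ATF6 and XBP1. RefSeq promoter entries on GRCm38.p6 matched 38 of the 48 genes, with 42 windows of 250 bases before the annotated start, and every motif was searched on both strands. The full ER stress element (ERSE) was in 0 of the 42 windows and in 0.113% of all 32851 promoter windows. The ATF6 and XBP1 motif TGACGTGG, whose reverse complement shares 5 letters with that element, was in 4 windows (9.52%), against 0.563% of all windows. The matches are shown because they belong to the called gene Sec16b and to 3 uncalled members. Each line gives the match in capitals (on either strand) with the bases before it, read along the strand of the gene, and up to 30 of the bases lie inside the GENCODE gene.
Sec16b chr1:157506730-157506759 (+): aagcggaaaggttctgtgtggcTGACGTGG
Sec24d chr3:123267448-123267477 (+): cacgcgcgcgcgcccgggcgccTGACGTGG
Copb1 chr7:114254701-114254730 (-): ttgctggtctccccgcccccttCCACGTCA
Kdelr3 chr15:79516356-79516385 (+): tgtcccgcgcctggccgccccgCCACGTCA

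The 4 genes with a TGACGTGG match did not share a direction. Sec16b had a log2 fold change of 1.82 and was called, Sec24d was at 0.11, and Copb1 and Kdelr3 were both at −0.58, without a call. A match is a run of letters and not a measured binding site.

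Motifs of the acinar PTF1 complex were searched in the same windows, because acinar markers differed so widely. The E-box CACCTG was in 9 windows (21.4%), against 17.2% of all windows, and the RBPJ core TGGGAA was in 7 (16.7%), against 21.6%. Of the called genes, Tmed11 had no RefSeq entry, and the others are too few to relate the E-box to a direction of change. Tmed6, called lower, had 2 matches, and Copz1, called lower, had 0. Sec16b, called higher, had 2 in its window from base 157525920 of chromosome 1, which lies inside the GENCODE gene. Its window from base 157506546 had 0. Tmed6, Sec16b and Copz1 each had 0 matches to the RBPJ core. Tmed6, the called p24 gene with a RefSeq entry, is shown with its E-box letters, CACCTG or its reverse complement, in capitals.
Tmed6 chr8:107065645-107065894 (-): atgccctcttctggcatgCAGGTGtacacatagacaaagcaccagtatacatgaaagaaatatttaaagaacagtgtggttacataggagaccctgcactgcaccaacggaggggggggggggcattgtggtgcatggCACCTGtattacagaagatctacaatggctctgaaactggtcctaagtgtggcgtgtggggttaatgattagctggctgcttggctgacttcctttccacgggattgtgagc

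The rest of the pathway was read from 7 further lists of 109 genes, of which 108 were tested, outside the 48 members. Of these, 15 were called lower and 7 higher, where 10.6% and 10.4% of all tested genes were called, and the median log2 fold change was −0.43. The counts by list that follow are to be read against the same shares, and most rest on few genes. The count of 15 became 5 without Ide+/+ replicate 4, 8 without Ide-/- replicate 1, and 1 without Ide-/- replicate 2 or replicate 3. Over all tested genes the lower calls also fell, from 1727 to 1101 without Ide+/+ replicate 4. They were 971, 809 and 853 without Ide-/- replicates 1, 2 and 3. The count of 7 became 3, 4 and 1 without Ide-/- replicates 1, 2 and 3, while the higher calls over all tested genes fell from 1699 to 864, 785 and 694. Sec61a2, the paralog of the Sec61a1 pore, was the only one of these 22 called under all 16 alternative settings.

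Among the 23 targeting and insertion genes, 3 were lower and 1 higher. Sec61a2 had 21.7, 25.9 and 33.1 CPM in the Ide-/- libraries, against 8.52, 12.3, 11.8, 9.42 and 14.6 CPM in the Ide+/+ libraries, all of them lower. It came to 1.24 on the log2 scale (SE 0.21, adjusted p = 0.00283, edgeR). Asna1, the ATPase that delivers tail-anchored proteins, was at −1.20, and the ER membrane complex subunits Mmgt1 and Emc6 were at −1.36 and −0.67. Each of these 3 calls ended without Ide-/- replicate 2 or Ide-/- replicate 3. Of the 12 oligosaccharyl transferase genes, which attach glycans to entering proteins, Tmem258 was higher (0.91, adjusted p = 0.0151, but 0.086 without Ide-/- replicate 3) and none was lower.

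Among 16 further COPII and export genes, Ergic3 (−0.87), Ergic1 (−1.16) and Mcfd2 (−1.32) were lower, and Preb, the exchange factor for Sar1, was higher (0.69). Mcfd2 is the partner of Lman1. Of 12 further COPI and Arf genes, the GTPase genes Arf1 (−0.99) and Arf4 (−1.03), which act in coat recruitment and Golgi traffic, were lower and none was higher. The 20 tether and SNARE genes, which dock and fuse vesicles, split, with Ykt6 (−0.90), Gorasp2 (−1.10) and Rab1b (−1.12) lower and Zw10 (0.70), Uso1 (0.78) and Stx5a (0.81) higher. Each of these calls ended when at least 1 of the 8 libraries was left out, and for Zw10 the adjusted p was 0.0582 without Ide-/- replicate 3.

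Of 9 regulators of the pathway, Bhlha15 (Mist1), a transcription factor of acinar and other secretory cells, was lower (−1.28, adjusted p = 0.0103, edgeR). Xbp1 had a log2 fold change of −1.14 and missed the threshold (adjusted p = 0.0640). Of 16 ER chaperone genes, Sel1l (−2.03), P4hb (−1.55) and Dnajc3 (−1.28) were lower and Hyou1 (1.06) was higher. Sel1l, an adaptor of ER-associated degradation, held its call in every fit that left out a library. On both TPM scales the Sel1l call ended, and over all settings its log2 fold change ran from −2.18 to −0.22. Hyou1 had adjusted p-values of 0.0663 and 0.109 without Ide-/- replicates 1 and 3. The Bhlha15, P4hb and Dnajc3 calls ended without Ide-/- replicate 2 or Ide-/- replicate 3. Emc6, Preb, Gorasp2, Rab1b, Stx5a, Dnajc3 and Xbp1 were named after their values were seen.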

How the data were processed

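RNA from hand-picked islets was sequenced in 8 libraries, and the labels give an input of 100 ng and an RNA integrity above 6.5. The submitters' processing notes name STAR 2.7.1a, RSEM 1.3.1 and the build GRCm38. The annotation release and the strandedness are not given in the sources used here, so antisense overlaps cannot be separated. The authors deposited expected counts, estimates that divide reads matching several genes, and TPM. Symbols came from GENCODE M21 and named 55141 identifiers.

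Expected counts were rounded and fitted in R 4.3.3 with edgeR 4.0.16 (TMM scaling, quasi-likelihood F test, genotype as the only term). The low-count filter had a minimum count of 10 and a total of 15, and adjustment was by Benjamini-Hochberg over every tested gene. Each SE is |log2 fold change| over the square root of the F statistic. CPM ratios used a prior count of 2. Alternatives used DESeq2 1.42.0 and limma 3.58.1. The fit was tested on counts simulated from the Ide+/+ means. Those counts lacked the wide acinar difference between the groups, so that run cannot test the scaling used here.

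Ide+/+ replicates 2 and 3 were the most alike (chi-square per degree of freedom 5.75, against 56.3 to 690.5 for other pairs within a genotype), above the sampling noise of 1, and were kept as separate libraries. Per-library values were printed for the called members and for the member with the highest mean TPM of each role. Further members were added where the text compares them, after their values were seen. Members and lists were chosen with earlier results of these data known. Camlg matched no identifier and is not used here.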

Additional observations from a re-analysis of the deposited data

Results flagged for a closer look

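In the Ide+/+ group, 10 of the 48 members had 1 library whose gap to the next, divided by the range of the 5 libraries, passed Dixon's critical value of 0.71. Chance flags about 1 in 20 groups, and the members share libraries. The share of all tested genes flagged by this rule was not computed. The library was Ide+/+ replicate 1 in each case, always the highest by TMM-scaled CPM, the scale of the rule. By TPM it was the highest Ide+/+ library for Spcs3, Sec23b, Ssr1 and Spcs2, but not for Copb1, Arcn1, Copb2, Sar1b, Lman1 and Sec13. The flags thus depend on the scaling. The gap over range was 0.87 for Spcs3 (669 CPM against 225 CPM in the next library), 0.86 for Copb1 (142 against 73.4 CPM), 0.852 for Arcn1 (292 against 143 CPM), 0.845 for Sec23b (198 against 78.2 CPM) and 0.844 for Copb2 (171 against 69.5 CPM). It was 0.789 for Sar1b (92.2 against 48.3 CPM), 0.775 for Lman1 (442 against 232 CPM), 0.774 for Ssr1 (439 against 217 CPM), 0.755 for Sec13 (83.0 against 53.9 CPM) and 0.71 for Spcs2 (565 against 308 CPM). None of these 10 genes was called.

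Of the 12 pairs, the ratio of Sec16b to Sec16a was set apart in Ide+/+ replicate 5, with a gap over range of 0.812. Its log2 ratio was −2.82 there, against −1.47 in the next lowest Ide+/+ library.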

How the results depend on the processing

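Over 16 alternative settings, Sec16b (log2 fold change 1.601 to 2.66), Tmed6 (−5.78 to −4.27) and Tmed11 (−8.75 to −5.34) were called in the same direction in all 16, and Copz1 in 6 (−1.04 to 0.05). The main counts were 3 lower and 1 higher with a median of −0.27. The lower count was 6 with DESeq2, 5 with limma-voom and 5 with no low-count filter. Over all tested genes these settings called 2196, 1687 and 1785 lower, the last of 30314 genes, against 1727 in the main fit. The higher count was 2 with DESeq2, 24 with log2(TPM + 1) and 19 with log2(TPM + 0.1), and the median was 0.76 and 0.80 on these TPM scales. Over all tested genes DESeq2 and the 2 TPM scales called 2038, 5925 and 4737 higher, against 1699 in the main fit. With 1 library left out, the lower count ran from 2 to 5, the higher count from 1 to 2 and the median from −0.38 to −0.084, the median nearest 0 being that without Ide+/+ replicate 1. Over all tested genes these fits called 809 to 2139 lower and 694 to 2141 higher. The deviations of same-numbered libraries from their group means had correlations of 0.0485, 0.00918 and −0.0934. No sign of pairing by number was seen, but so few values cannot exclude it. With the replicate number as a block, 2 members were lower and 1 higher with a median of −0.25, and over all genes 465 were higher and 706 lower. The sign of 30 of the 48 members differed from the main fit on each TPM scale. The members listed next are those also called in the main fit or on the TPM scale. On log2(TPM + 1), signs reversed with such a call for Sec61a1 (1.84), Sec61g (0.82), Sec62 (0.81), Spcs1 (0.75), Sec11a (0.76), Sec13 (0.98), Copb1 (0.82), Copb2 (0.97), Copz1 (0.046), Copz2 (1.02), Tmed4 (0.86) and Tmed9 (1.03). On log2(TPM + 0.1), they reversed for Sec61a1 (1.86), Sec62 (0.82), Spcs1 (0.76), Sec11a (0.77), Sec13 (1.003), Copb2 (1.003), Copz1 (0.049), Tmed4 (0.88) and Tmed9 (1.04). Among the called genes of the further pathway lists, log2(TPM + 1) and log2(TPM + 0.1) reversed Emc6 (0.21 and 0.22), Ergic3 (0.39 and 0.41), Arf4 (0.0211 and 0.0214), Ykt6 (0.012 and 0.025) and P4hb (0.28 and 0.28), settings applied to these genes after seeing the data. The cause was not tested. The Tmed11 level in Ide-/- islets is limited by 4 to 22 counts per library.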
